A study of Homo sapiens with 20 samples.

Results

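The mitosis and G2/M genes described here are 42 genes whose products take cells out of the G2 phase and through mitosis. They were picked by name, with earlier results of these data known. Each was found under its symbol in all 20 libraries, among 36346 gene names, as 1 row per gene except KIF15, whose 2 rows were summed. All 42 passed the filter on low values in both cell lines. They were sorted by role into 8 groups, which run from the cyclins to the transcription factor FOXM1.

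HT29 and SW480 are long-established lines of human colorectal cancer. The study describes a focal amplification of 13q12.2 in HT29 and a gain of the whole of chromosome 13 in SW480. POLR1D (chromosome 13, 27620742 to 27744237, GRCh38, plus strand) encodes a subunit shared by RNA polymerases I and III. Its mRNA was lowered by either of 2 siRNAs, siPOLR1D-2 and siPOLR1D-3, given by reverse transfection, and control cells received a scrambled siRNA (SCR). All cells were harvested after 72 h, and both lines were otherwise unmodified by the labels. HT29 has 4 SCR libraries, 2 libraries of siPOLR1D-2 and 2 of siPOLR1D-3, while SW480 has 6, 3 and 3. The labels do not say whether the libraries of a group are separate cultures, so p values measure the spread between these libraries, which may be technical.

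As background, entry into mitosis is driven by cyclin B bound to the kinase CDK1, with Aurora and Polo-like kinases building the spindle, and the anaphase-promoting complex with CDC20 ends mitosis by marking cyclin B and securin for destruction. Most of these genes are transcribed as a group late in the cell cycle. The MuvB complex binds an element called the CHR (cell cycle genes homology region) in their promoters, first as the repressing DREAM complex and later together with B-Myb and FOXM1, and the factor NF-Y binds CCAAT boxes nearby.

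Because the genes are known for this promoter arrangement, which the choice of genes did not use, RefSeq promoter windows (GRCh38.p14, 250 bases before to 50 bases after the start) were searched for it. A window was at hand for 36 of the 42 genes, the others being AURKA, TPX2, BIRC5, TTK, UBE2C and FOXM1. The CHR was searched as TTTGAA or TTCGAA and the NF-Y box as CCAAT, on both strands. Among the 42 genes a CHR and a CCAAT match shared a base in MKI67, where a CHR at -29 ends on the first base of a reversed CCAAT at -24. The sequences below are the 150 bases before the start of 5 genes that changed in SW480 (PRC1, NUF2, ECT2, KIF15 and KIF2C), and of CCNB2 and PLK1 as examples with both elements. They are written 5′ to 3′ on the strand of the gene, with CHR and CCAAT matches of either orientation in capitals.
PRC1, chr15:90994536-90994685, minus strand: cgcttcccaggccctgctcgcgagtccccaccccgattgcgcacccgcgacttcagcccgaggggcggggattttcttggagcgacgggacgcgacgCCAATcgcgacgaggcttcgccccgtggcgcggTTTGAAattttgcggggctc
NUF2, chr1:163321804-163321953, plus strand: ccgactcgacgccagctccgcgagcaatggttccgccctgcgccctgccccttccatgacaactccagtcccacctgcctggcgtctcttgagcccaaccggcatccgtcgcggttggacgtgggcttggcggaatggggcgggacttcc
ECT2, chr3:172750576-172750725, plus strand: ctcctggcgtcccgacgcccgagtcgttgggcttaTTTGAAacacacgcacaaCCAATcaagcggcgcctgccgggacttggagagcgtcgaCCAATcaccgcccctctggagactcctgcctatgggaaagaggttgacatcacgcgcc
KIF15, chr3:44761644-44761793, plus strand: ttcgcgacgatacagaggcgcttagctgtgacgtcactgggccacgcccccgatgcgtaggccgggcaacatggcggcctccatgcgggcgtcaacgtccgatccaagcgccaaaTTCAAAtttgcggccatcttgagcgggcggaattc
KIF2C, chr1:44739687-44739836, plus strand: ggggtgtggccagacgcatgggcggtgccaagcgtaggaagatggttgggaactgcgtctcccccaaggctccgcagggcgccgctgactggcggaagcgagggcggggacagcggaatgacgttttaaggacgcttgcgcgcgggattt
CCNB2, chr15:59104996-59105145, plus strand: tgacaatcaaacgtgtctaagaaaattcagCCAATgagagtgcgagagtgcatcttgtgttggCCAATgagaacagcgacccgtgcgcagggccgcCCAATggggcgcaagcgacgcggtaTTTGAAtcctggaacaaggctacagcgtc
PLK1, chr16:23678739-23678888, plus strand: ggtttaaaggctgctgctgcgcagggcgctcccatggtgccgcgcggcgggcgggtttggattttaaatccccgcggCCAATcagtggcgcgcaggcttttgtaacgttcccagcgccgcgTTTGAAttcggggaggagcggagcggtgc

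A gene was counted if any of its windows held a match. A CHR match was present in 27 of the 36 genes (75%), against 16.1% of the 11099 genes tested in either line that have a window. Of all 27305 genes with a window, 19.5% had such a match. In a list of 60 other mitosis genes, 35 of the 48 with a window had it (72.9%), and in a list of 30 G1/S and DNA replication genes, 2 of 24 (8.33%). CCAAT was found in 27 of the 36 as well (75%), against 43.0% of the genes tested and 66.7% of the G1/S list. Both motifs shared a window in 21 genes (58.3%), against 6.67% of the genes tested. In these 21 the next CHR match began 9 to 253 bases after a CCAAT match, with a median of 33. That distance was 30 to 45 bases in 6 of them. The first base of the CHR match nearest to the start lay between -151 and 41 bases from it, with a median of -20. In PRC1, PLK1 and CCNB2 the CHR followed the last CCAAT box and lay within 30 bases of the start, while in KIF15 it stood in the reverse orientation. In NUF2 it began at base 17 after the start and so outside the printed piece, and in KIF2C neither motif occurred in the window. The window of ECT2 held CHR matches at -115 and, outside the printed piece, at 35, with 3 CCAAT boxes between them, the last of which crosses the start. A match is a description of the letters and not evidence of binding.

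**Figure D1:**
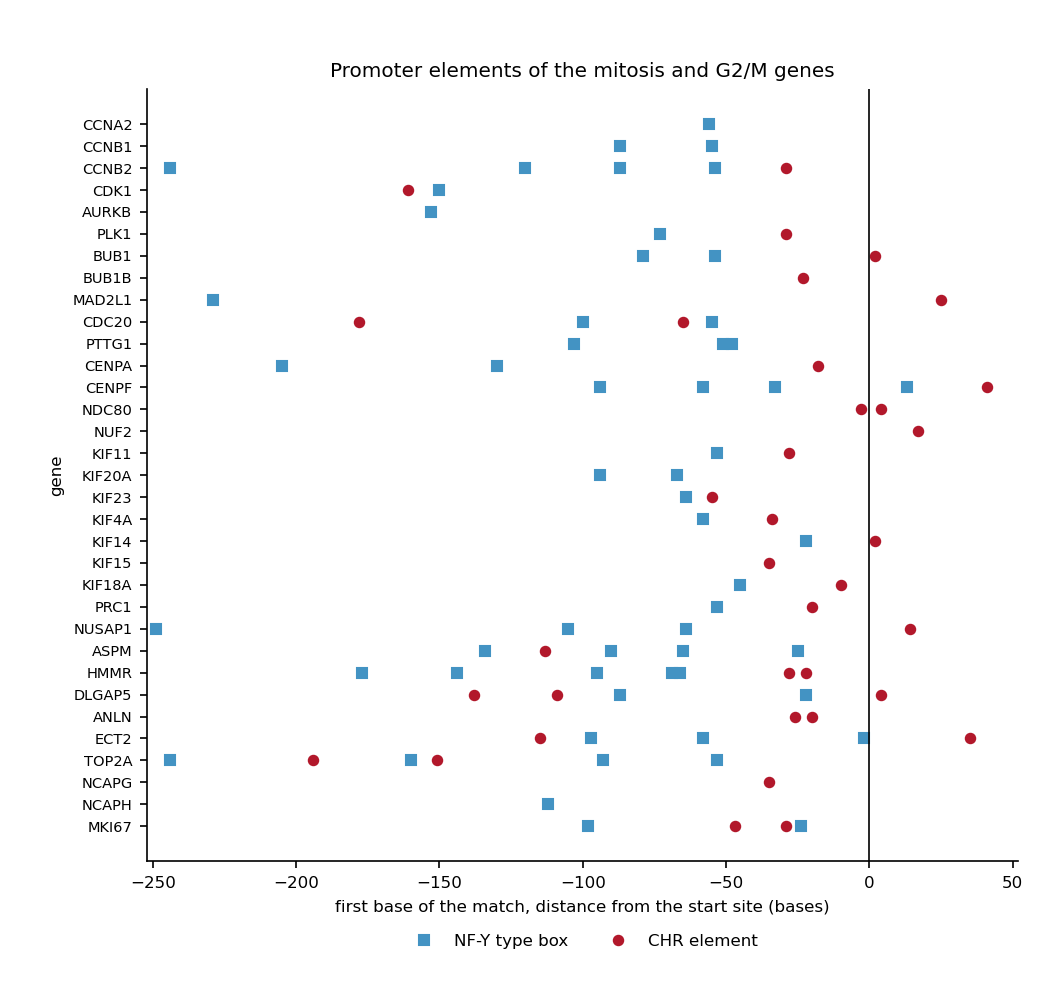
Position of the matches in the RefSeq promoter windows of the mitosis and G2/M genes, with the first base of each match on the horizontal axis as distance from the start site in bases, squares for CCAAT matches (NF-Y type box) and circles for CHR matches. Genes with at least 1 match are shown, each by 1 window, that with the lowest coordinate among its windows with a match. Most CHR matches nearest to the start gather around their median of -20, which was taken over all windows. For CDK1 the nearest CHR match, at 10, lies in a window that is not shown.

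For the whole series, libraries held an estimated 13.53 M to 27.59 M reads. POLR1D itself was below every SCR library in all silenced libraries of both lines, with values of 2549.6 to 3492 against 4433 to 6036 in HT29 (log2 fold change -0.72, exact permutation p = 0.0286, adjusted p = 0.355 from limma) and 843 to 1336 against 1829 to 2599 in SW480 (-1.04, exact permutation p = 0.00216, adjusted p = 0.000991 from limma). These exact p values are the smallest that 4 against 4 and 6 against 6 libraries allow. Of 8 colorectal epithelial markers, 7 were at 10 or more in every library of each line. In HT29 the exception was CDX2, at 0 to 0.46 in SCR and 3.96 to 7.91 in silenced libraries. In SW480 it was LGALS4, at 0 to 9.07 and 6.51 to 56.4. Summed levels of the markers were 221953 to 247155 in HT29 SCR, 218569 to 259827 in silenced HT29, 139156 to 270008 in SW480 SCR and 184341 to 231604 in silenced SW480. KRT19 was higher in silenced SW480 (log2 fold change 0.70, adjusted p = 0.0226 from limma). In SW480, CDX2 was higher with siPOLR1D-3 than with siPOLR1D-2 (1.72, adjusted p = 0.0387 from limma). Of 7 markers of blood, stroma and endothelium, 1 in HT29 and 2 in SW480 reached 10 in every library, none was at 0 in all libraries of a line, and their summed levels were 22.5 to 75.7 in HT29 SCR, 42.7 to 88.6 in silenced HT29, 121 to 711 in SW480 SCR and 129 to 766 in silenced SW480. Whether these markers bear on the genes below was not tested.

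Libraries stood apart in both lines. The HT29 library SCR replicate 1 stood apart from the other 7 on the first principal component (88.3 against values from -21.1 to 18.7, 43.3% of the variance), and it had the fewest detected gene names of the HT29 libraries (17448), at 14.16 M reads. SCR replicate 2, at 18.7, lay on the same side of 0 as SCR replicate 1, and the remaining HT29 libraries lay from -21.1 to -15.1. In SW480 the first component (42% of the variance) put SCR replicates 1 to 3 and siPOLR1D-2 replicates 1 and 2 on one side and the other 7 libraries on the opposite side. Results are therefore given with and without HT29 SCR replicate 1, and the SCR libraries of SW480 are also taken 3 at a time. The labels name no batch, and whether these splits reflect one was not tested.

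**Figure D2:**
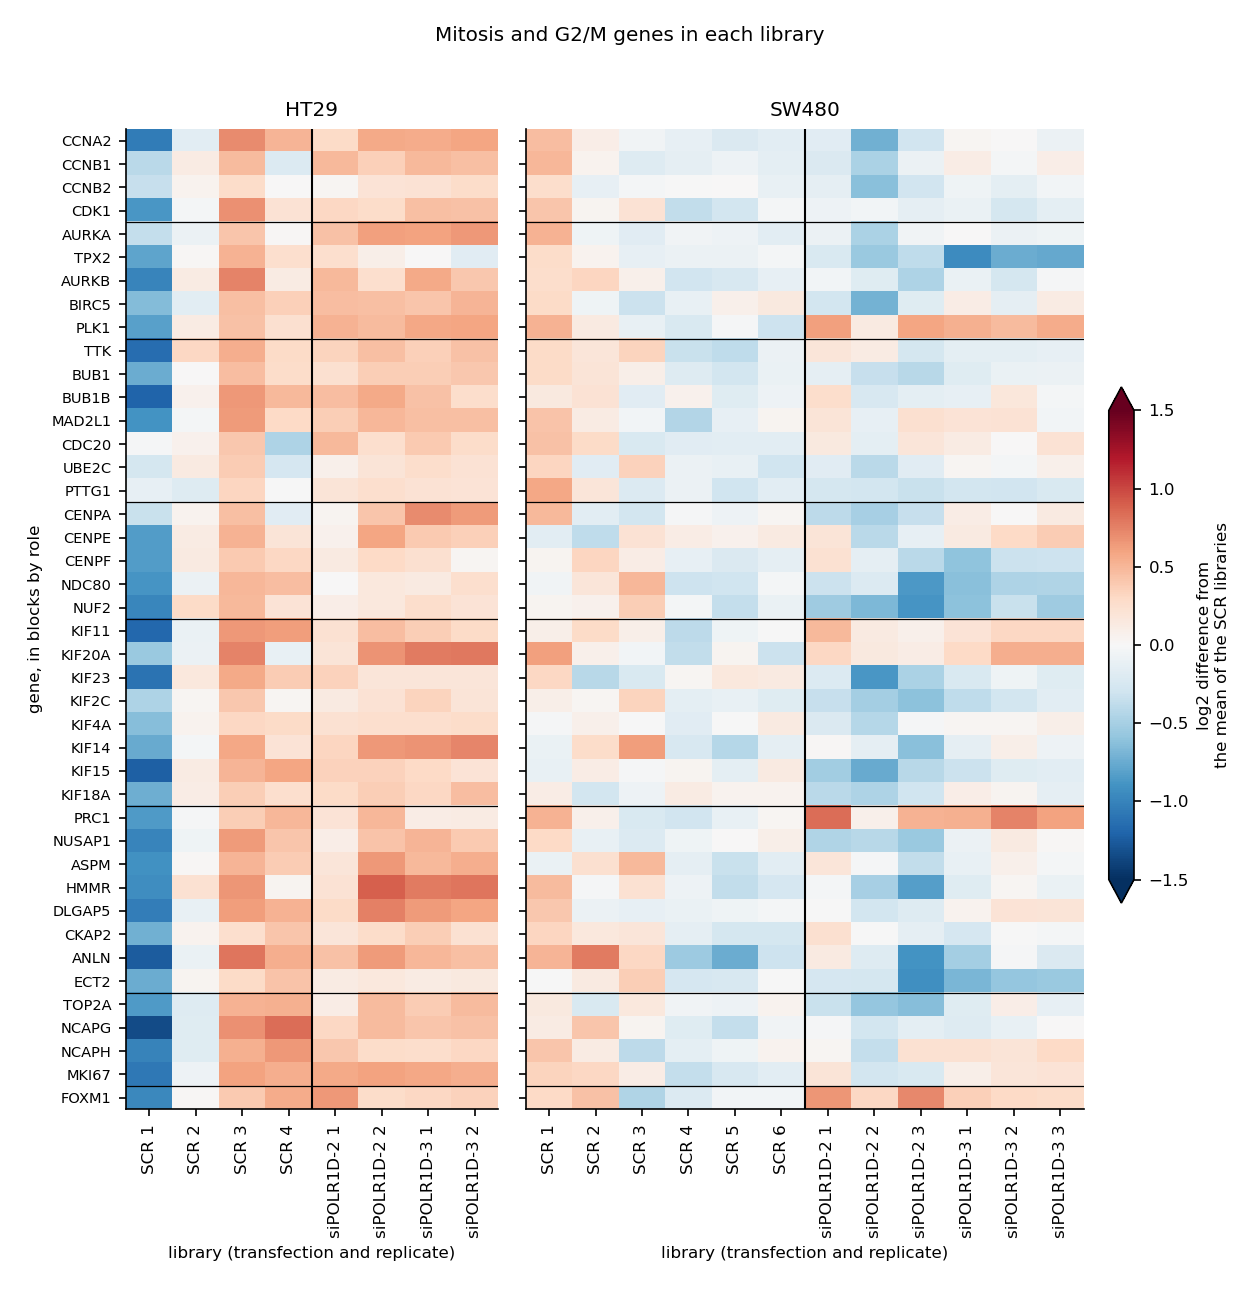
Log2 difference of each gene in each library from the mean of the SCR libraries of its line, with genes in rows by role and libraries in columns. The colour scale runs from -1.5 (blue) to 1.5 (red), and the SCR replicate 1 column of HT29 is blue in nearly every row.

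In SW480, TPX2, NUF2, ECT2, KIF15 and KIF2C fell and PRC1 rose after POLR1D silencing, 6 of the 42 genes at an adjusted p under 0.05 by limma (14.3%). Among all 15019 genes tested, 1011 were called (6.73%), of which 4.29% fell and 2.44% rose. The median log2 fold change over the 42 genes was -0.13, beside 0.013 over all genes tested, and 32 of the 42 were below 0 (76.2%, against 48.5% of all genes). The median was 0.027, and so of the opposite sign, when libraries were weighted by their quality. TPX2 and KIF15 were lower in every silenced library than in every SCR library, as were 2.88% of all genes tested. In bulk RNA, fewer cells in mitosis and less RNA per cell cannot be told apart.

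The kinase partner TPX2 (chromosome 20, 31739271 to 31801805, plus strand) activates Aurora A and nucleates microtubules around chromosomes. Its normalized read count had a lowest, median and highest value of 6637, 6976 and 8776 in the 6 SCR libraries, and of 3760.3, 4623 and 6164 in the 6 silenced libraries. All 6 silenced libraries lay below every SCR library, and the 3 siPOLR1D-3 libraries were the lowest of all. On the log2 scale TPX2 fell by 0.60, with an SE of 0.12 (adjusted p = 0.0137 from limma, exact permutation p = 0.00216). AURKA, the kinase that TPX2 activates, had a median of 5036 in SCR (range 4697 to 7617) and of 5029.7 in silenced libraries (3805 to 5309), so these groups overlapped (log2 fold change -0.13, adjusted p = 0.594 from limma).

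The other kinases and partners of this group went in different directions. PLK1, the Polo-like kinase of mitotic entry and spindle function, ranged from 984 to 1743 in SCR with a median of 1168, and from 1333 to 1864 in silenced libraries with a median of 1772. In 4 of 6 silenced libraries PLK1 lay above every SCR library, and the difference of 0.48 on the log2 scale, with an SE of 0.14, missed the threshold (adjusted p = 0.0515 from limma). PLK1 passed without SCR replicate 1 (0.59, adjusted p = 0.0102) and without siPOLR1D-2 replicate 2 (0.55). BIRC5, which encodes survivin of the chromosomal passenger complex, ranged from 618 to 941 in SCR and from 472 to 840.5 in silenced libraries. AURKB, the kinase of that complex, had a log2 fold change of -0.18 as BIRC5 did, and neither passed the test.

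At the kinetochore, NUF2 (chromosome 1, 163266576 to 163355764, plus strand) and NDC80 encode partner subunits of the complex that holds microtubules. The NUF2 values were 827, 1063 and 1369.7 in SCR and 574, 710.1 and 838 in silenced libraries, as lowest, median and highest. In 5 of 6 silenced libraries NUF2 was below every SCR library, with siPOLR1D-3 replicate 2 just inside the SCR range, so that NUF2 fell by 0.60 on the log2 scale, with an SE of 0.13 (adjusted p = 0.0164 from limma, exact permutation p = 0.00433). NDC80 had values of 1505, 1818 and 2647 in SCR and of 1024, 1361 and 1623 in silenced libraries. It was also below every SCR library in 5 of 6, but did not pass the test (log2 fold change -0.49, SE 0.15, adjusted p = 0.0676 from limma). CENPF, a large protein of the outer kinetochore, ranged from 10045 to 14571 in SCR and from 7650.4 to 13636 in silenced libraries (log2 fold change -0.26, adjusted p = 0.273 from limma). The centromeric histone CENPA (-0.16) and the motor CENPE (0.078) did not pass either.

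Among the kinesin motors, KIF15 and KIF2C fell. KIF15 (chromosome 3, 44761717 to 44873376, plus strand), which helps to keep spindle poles apart, had values of 1398, 1560.3 and 1702 in SCR and of 919, 1203 and 1394 in silenced libraries. All 6 silenced libraries lay below every SCR library, although siPOLR1D-3 replicate 3 did so only narrowly (log2 fold change -0.39, SE 0.11, adjusted p = 0.0493 from limma, exact permutation p = 0.00216). KIF2C (chromosome 1, 44739818 to 44767767, plus strand), which depolymerizes microtubules at centromeres, had values of 2388, 2647 and 3416 in SCR and of 1778, 2113 and 2428 in silenced libraries. In 5 of 6 silenced libraries it was below every SCR library (-0.38, SE 0.11, adjusted p = 0.0495 from limma, exact permutation p = 0.00433). Both calls rest on a narrow margin. KIF2C lost its call in each of the 12 fits that left out 1 library (adjusted p from 0.0545 to 0.106), and KIF15 in 11 of 12, the exception being the fit without SCR replicate 1 (adjusted p from 0.0464 to 0.104 over the 12). Of the other 6 kinesins, KIF20A, a motor of cytokinesis, had a log2 fold change of 0.33 (adjusted p = 0.223 from limma, and 0.0396 without SCR replicate 1), and KIF14 of -0.14. KIF11, KIF23, KIF4A and KIF18A had values from -0.34 to 0.26, and none passed the test.

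PRC1 (chromosome 15, 90966038 to 90995629, minus strand) bundles the microtubules of the central spindle. It was the one gene past the threshold among the 10 of 42 with a log2 fold change above 0 in the pooled SW480 comparison. Its values were 800.2, 954 and 1409 in SCR and 1034, 1450.0 and 1743 in silenced libraries, and 4 of 6 silenced libraries lay above every SCR library (log2 fold change 0.55, SE 0.15, adjusted p = 0.0462 from limma, exact permutation p = 0.00649). ECT2 (chromosome 3, 172750682 to 172821474, plus strand), which activates RhoA at the cell equator for cytokinesis, went the opposite way. It had values of 3858, 4598 and 5932 in SCR and of 2426, 3108 and 3869 in silenced libraries, and in 5 of 6 silenced libraries it was below every SCR library (-0.54, SE 0.14, adjusted p = 0.031 from limma, exact permutation p = 0.00433). The PRC1 call was kept without SCR replicate 1 and without siPOLR1D-2 replicate 2 and lost in the other 10 fits that left out 1 library (adjusted p from 0.0126 to 0.0997 over the 12). The ECT2 call was lost in 7 such fits, those without SCR replicate 2, 3 or 6, without siPOLR1D-2 replicate 3, or without any 1 of the siPOLR1D-3 libraries (adjusted p from 0.0255 to 0.0685 over the 12). TPX2 and NUF2 passed in all 12.

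The remaining members of that group, NUSAP1, ASPM, HMMR, DLGAP5, CKAP2 and ANLN, had log2 fold changes from -0.28 (ANLN) to -0.0024 (DLGAP5) in SW480, with no call. HMMR, a spindle pole protein and hyaluronan receptor, ranged from 1648 to 2969 in SCR and from 1197 to 2169 in silenced libraries (-0.27, adjusted p = 0.371 from limma). ANLN, the scaffold of the contractile ring, was the most variable gene of the 42 among SCR libraries, with an SD of 0.62 on the log2 scale. CKAP2, named for its place on chromosome 13 with POLR1D, had a log2 fold change of -0.031.

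None of the cyclins and none of the spindle checkpoint genes passed the adjusted threshold in SW480. CCNA2, CCNB1, CCNB2 and CDK1 had log2 fold changes of -0.21, -0.10, -0.22 and -0.13. CCNB2 was below every SCR library in 4 of 6 silenced libraries (exact permutation p = 0.039, not adjusted for the number of genes). CCNB1, the cyclin of mitotic entry, had values of 3120.0 to 5031 in SCR with a median of 3311 and of 2571 to 3852 in silenced libraries with a median of 3419.6. CDK1 had 1316 to 2274 in SCR and 1419.9 to 1655 in silenced libraries, so its silenced range fell inside the SCR range. Of the 7 checkpoint and anaphase-promoting complex genes, none passed the test. BUB1, a checkpoint kinase, had a log2 fold change of -0.21 (adjusted p = 0.278 from limma), CDC20, the activator of the anaphase-promoting complex, of 0.089, and TTK, BUB1B, MAD2L1 and UBE2C lay between -0.11 and 0.12. PTTG1, which encodes securin, had -0.28 (adjusted p = 0.215 from limma, exact permutation p = 0.0152, the latter not adjusted for the number of genes).

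Among chromosome structure genes, the topoisomerase TOP2A had values of 14161, 16579.8 and 18577 in SCR and of 10615, 13882 and 17718 in silenced libraries. Of the 6 silenced libraries, the 3 of siPOLR1D-2 were below every SCR library (pooled log2 fold change -0.29, adjusted p = 0.187 from limma). MKI67, which encodes the proliferation marker Ki-67, had medians of 27184 in SCR and 30267 in silenced libraries, and the difference of the mean log2 values was 0.027 (adjusted p = 0.934 from limma). The condensin subunits NCAPG and NCAPH had -0.12 and 0.10. FOXM1, the transcription factor that activates many of these genes, had values of 1215, 1615 and 2256 in SCR and of 2004, 2099 and 2731 in silenced libraries (0.44, SE 0.15, adjusted p = 0.0924 from limma). It passed the test without SCR replicate 2 (0.53, adjusted p = 0.0448).

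**Figure D3:**
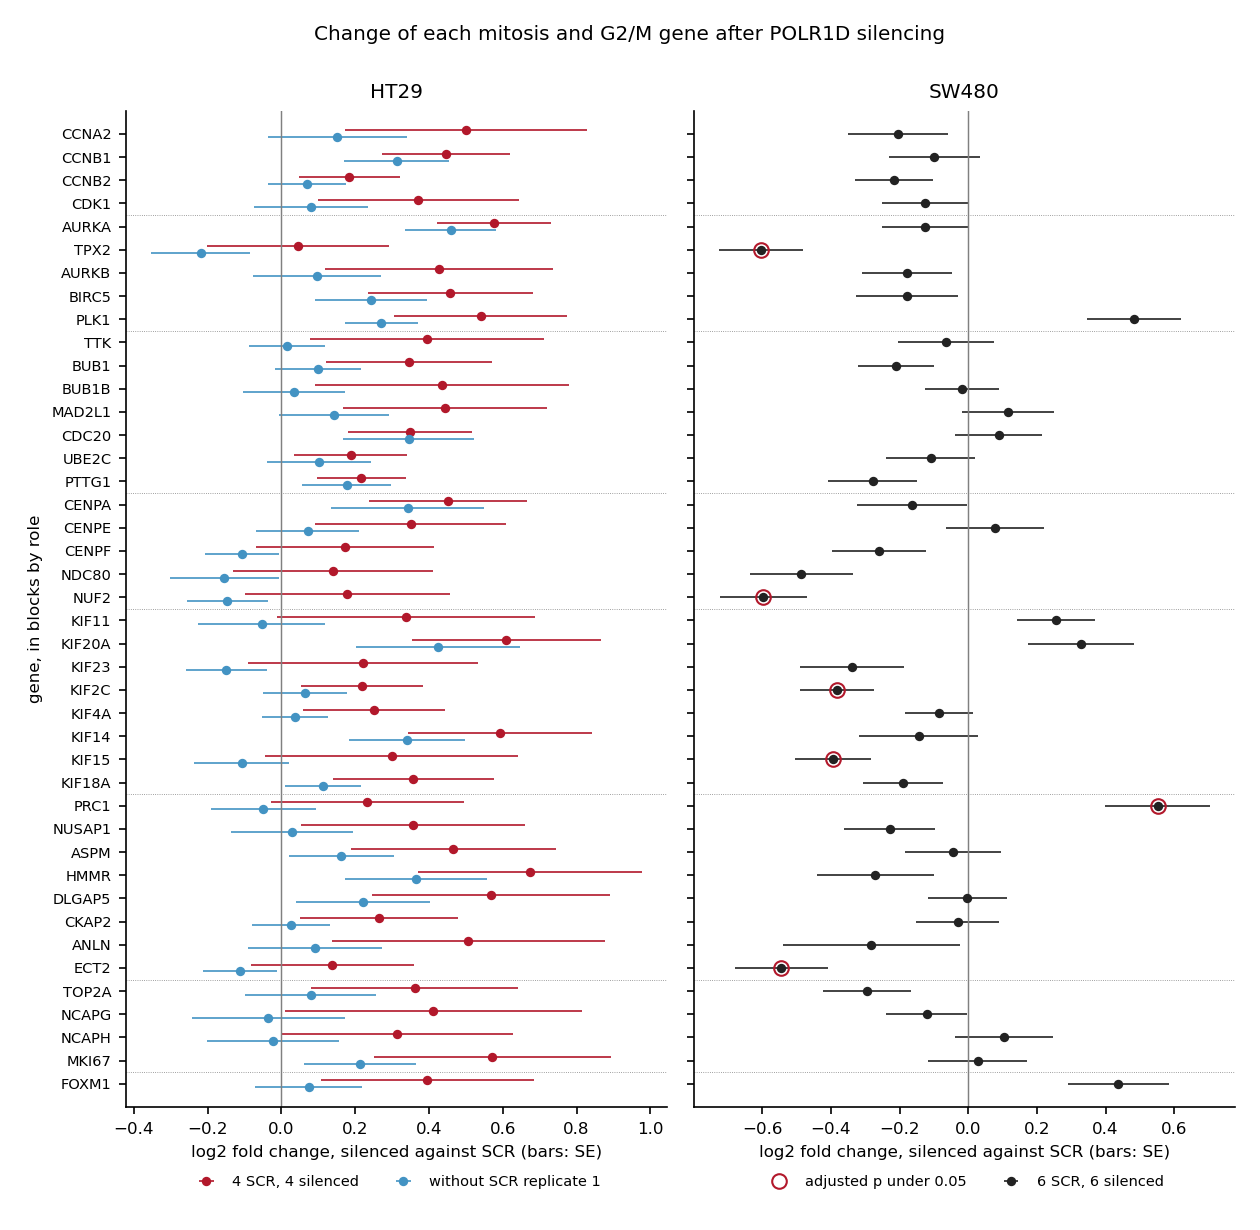
Log2 fold change of each gene, silenced against SCR, on the horizontal axis (points, with bars for the SE), by role, in HT29 with all libraries (red) and without SCR replicate 1 (blue) and in SW480 (black). Rings mark the 6 genes of SW480 with an adjusted p under 0.05 from limma, and all 42 red points of HT29 lie above 0.

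The annotation places other genes over some of these loci, and the sources used here do not say that reads were assigned by strand. NUF2 overlaps RGS5 on the opposite strand, PRC1 overlaps PRC1-AS1 on the opposite strand and AC068831.7 on its own, KIF2C overlaps the antisense RNA AL592166.1, and KIF15 overlaps TMEM42 on its own strand. ECT2 overlaps the small RNAs RF00139 and RNU4-4P on the opposite strand, and PLK1 overlaps ERN2. No annotated gene overlaps TPX2 or AURKA. For the others, the overlap is one of whole gene spans, introns included, and overlap of exons was not looked up. Where exons overlap, reads may have been counted for either gene.

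Each siRNA was also set against the 6 SCR libraries of SW480, which both comparisons share. With siPOLR1D-2, 7 of the 42 genes fell by limma (16.7%) and 0 rose, beside 5% of all genes tested that fell and 3.16% that rose, and the median log2 fold change was -0.24. These were TPX2 (-0.39), NUF2 (-0.70), KIF2C (-0.49), KIF15 (-0.57) and, named after their values were seen, KIF18A (-0.39), NUSAP1 (-0.48) and TOP2A (-0.52). With siPOLR1D-3, 2 fell (4.76%) and 0 rose, TPX2 (-0.82) and ECT2 (-0.61), beside 4.45% of all genes tested that fell and 2.15% that rose, with a median of -0.031. When 1 library was left out in turn, the number of genes called ranged from 1 to 10 with siPOLR1D-2 and from 1 to 4 with siPOLR1D-3. With siPOLR1D-2 it was 4 without SCR replicate 6, and 3, 2 and 1 without siPOLR1D-2 replicates 1, 2 and 3. With siPOLR1D-3 it was 4 without SCR replicate 1, and 1 without SCR replicate 2, 3 or 6 or any 1 of the siPOLR1D-3 libraries. The share of all genes called with 1 library left out is not at hand.

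TPX2 fell with both siRNAs. Its values were 6164, 4934 and 5580.1 with siPOLR1D-2 and 3760.3, 4311 and 4253 with siPOLR1D-3, against at least 6637 in SCR, so neither siRNA group overlapped SCR or the other. NUSAP1, a microtubule-binding protein of the spindle, had 1419, 1452 and 1324 with siPOLR1D-2, all below every SCR library (1689.6 to 2382), and 1825, 2128 and 1959 with siPOLR1D-3, inside the SCR range. KIF18A, a kinesin that damps chromosome movements, had 1379, 1323 and 1484 with siPOLR1D-2 and 1955, 1881 and 1663 with siPOLR1D-3, against 1509.9 to 1991 in SCR. A direct test of siPOLR1D-3 against siPOLR1D-2 called 0 of the 42 genes by limma, beside 3.32% of all genes tested. At an unadjusted p under 0.05, 8 were higher with siPOLR1D-3 and 1, TPX2, was lower (10.7% and 11.1% of all genes), and the smallest adjusted p values were those of NUSAP1 (0.49, adjusted p = 0.0584), TOP2A (0.45, 0.0791) and TPX2 (-0.43, 0.0798). Of the 42, 34 were higher with siPOLR1D-3 (81%), against 50.3% of all genes. On the first principal component every siPOLR1D-3 library lay below 0, as did siPOLR1D-2 replicate 3, while siPOLR1D-2 replicates 1 and 2 lay above. The comparison therefore does not separate the siRNAs from that split of the libraries.

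The values depended on which SCR libraries were used. The mean log2 difference of the 42 genes from the SCR mean was 0.26, 0.093 and 0.036 in SCR replicates 1 to 3 and -0.16, -0.16 and -0.074 in SCR replicates 4 to 6. It was -0.022, -0.30 and -0.25 with siPOLR1D-2 and -0.090, -0.011 and -0.014 with siPOLR1D-3. All 6 silenced libraries were thus below SCR replicates 1 to 3, while 4 of them were higher than both SCR replicate 4 and SCR replicate 5. With siPOLR1D-2 against SCR replicates 1 to 3 the median log2 fold change was -0.35 and 0 genes were called by limma (0% of all genes tested, and 14 of the 42 lower at an unadjusted p under 0.05, as were 8.12% of all genes). With siPOLR1D-3 against SCR replicates 4 to 6 the median was 0.10, and 11 genes were called, 8 higher and 3 lower, beside 9.29% of all genes tested that were higher and 11.1% that were lower. PRC1 (0.75), PLK1 (0.70), KIF20A (0.68), MKI67 (0.41), FOXM1 (0.40) and CDC20 (0.28) rose there, as did KIF11 (0.43), the motor that separates spindle poles, and NCAPH (0.29). TPX2 (-0.76), ECT2 (-0.44) and KIF23 (-0.27), a motor of the central spindle, fell. KIF11, KIF23 and NCAPH are named after their values were seen.

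**Figure D4:**
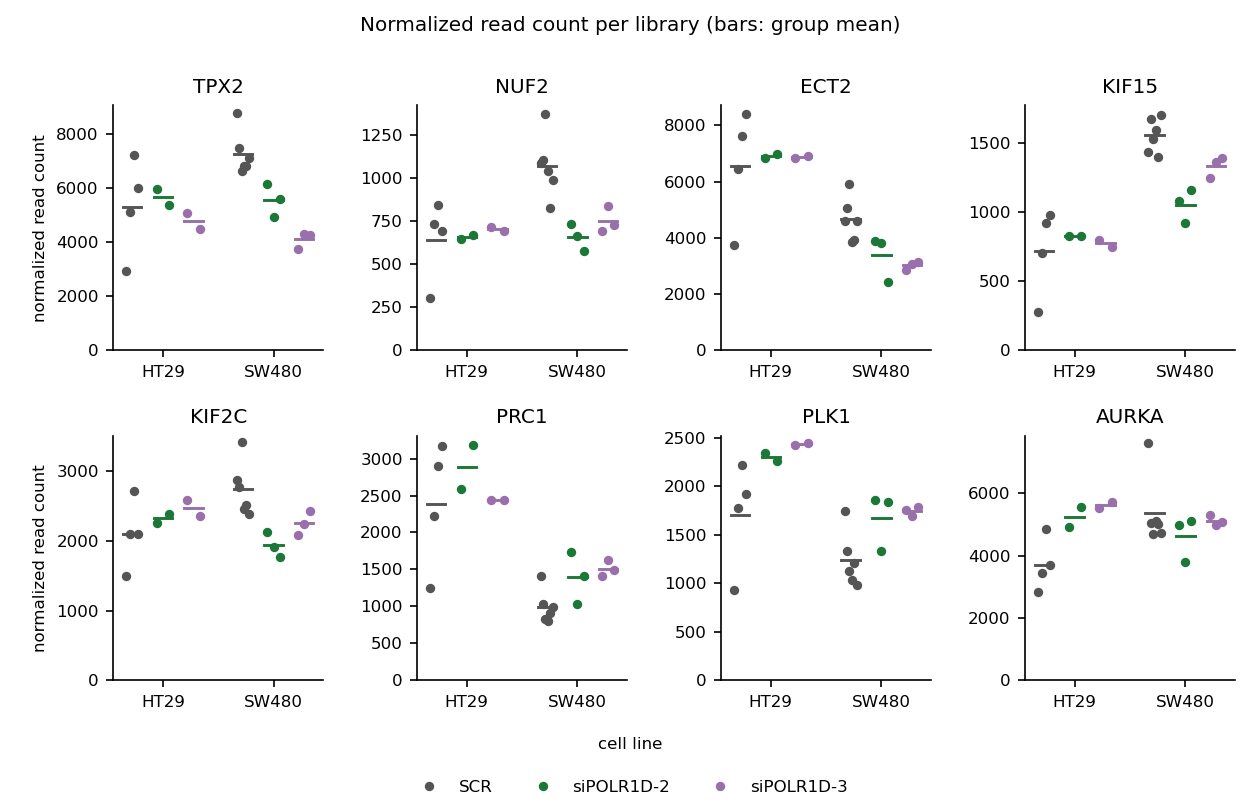
Normalized read count of 8 genes in each library, with 1 point per library, grey for SCR, green for siPOLR1D-2 and purple for siPOLR1D-3, and a bar at each group mean. The vertical axis starts at 0 and values were normalized within a line, so levels are compared within HT29 or within SW480 only. In SW480 all silenced TPX2 values lie below the lowest SCR value of 6637.

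In HT29, limma called 0 of the 42 genes after POLR1D silencing and 0 of 13274 genes tested (0%), with 5 of the 42 higher and 0 lower at an unadjusted p under 0.05 (4.66% and 6.05% of all genes). All 42 log2 fold changes were above 0, against 50% of all genes, with a median of 0.36 and a range from 0.045 (TPX2) to 0.67 (HMMR). These values moved with SCR replicate 1. In that library each of the 42 genes was below the mean of SCR replicates 2 to 4, by a median of -1.13 on the log2 scale, while the median over all genes tested was 0.0071. It was the lowest of the 8 libraries for 40 of the 42 genes (95.24%), against 27.72% of all genes tested. Without it the median fold change was 0.080, 11 of the 42 genes were below 0 (50.4% of all genes), 0 were called (0% of all genes), and 2, AURKA and PLK1, stayed at an unadjusted p under 0.05, both higher, beside 4.3% of all genes that were higher at that level.

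The mean over the 42 genes, as log2 difference from the mean of the 4 SCR libraries, was -0.81 in SCR replicate 1 and 0.013, 0.51 and 0.28 in the other SCR libraries. It was 0.28 and 0.41 with siPOLR1D-2 and 0.40 and 0.38 with siPOLR1D-3. The silenced libraries thus lay within the range of SCR replicates 2 to 4. Relative to the mean of SCR replicates 2 to 4, SCR replicate 2 was lower for 40 of the 42 genes (mean -0.25). Of the 13274 genes tested, 6546 were lower in it, so the values without SCR replicate 1 still include a low SCR library. For a single gene, the SD among SCR libraries had a median of 0.62 on the log2 scale over the 42 genes, and 0.30 without SCR replicate 1, against 0.09 among silenced libraries.

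**Figure D5:**
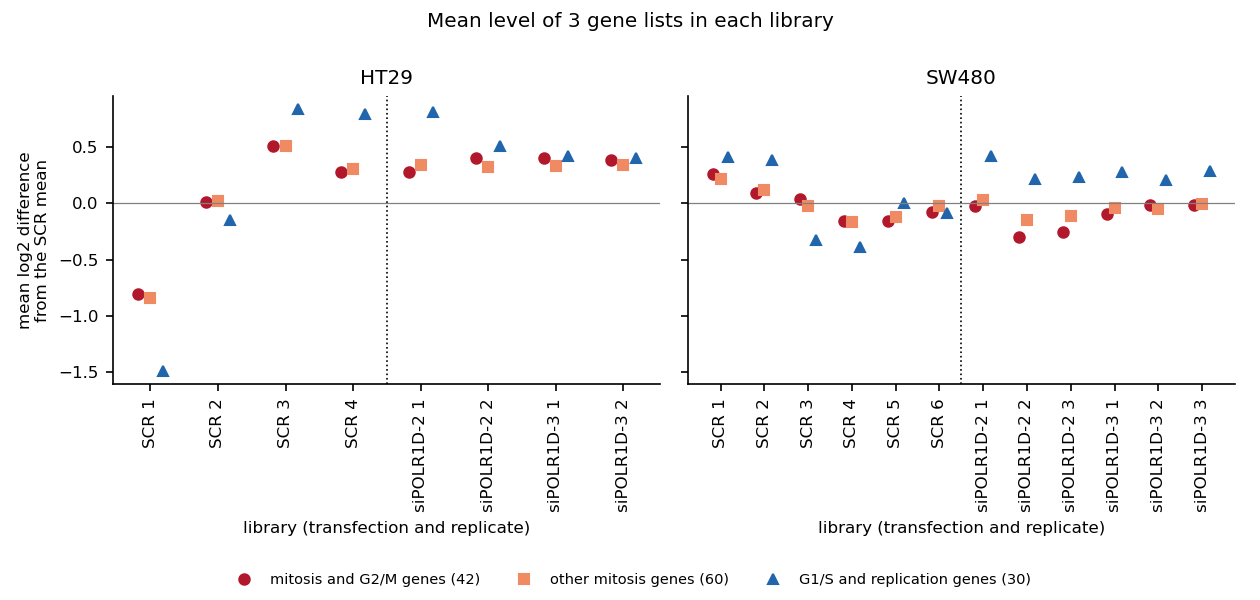
Mean log2 difference from the SCR mean (vertical axis) in each library (horizontal axis) for the 42 mitosis and G2/M genes (circles), 60 other mitosis genes (squares) and 30 G1/S and replication genes (triangles). In HT29 SCR replicate 1 lies at -0.81 for the 42 genes and the other SCR libraries between 0.013 and 0.51.

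AURKA and PLK1 were the genes that kept their place without that library. AURKA had values of 2848, 3436, 4848 and 3699 in HT29 SCR replicates 1 to 4, of 4934 and 5567 with siPOLR1D-2 and of 5521 and 5725 with siPOLR1D-3. All 4 silenced libraries were above every SCR library, with SCR replicate 3 the closest (log2 fold change 0.58, SE 0.15, adjusted p = 0.355 from limma, exact permutation p = 0.0286). PLK1 had 928, 1776, 2215 and 1918 in SCR and 2342, 2259.8, 2426 and 2446 in silenced libraries, which again did not overlap (0.54, SE 0.23, adjusted p = 0.454 from limma, exact permutation p = 0.0286). These were 2 of the 42 genes, and 2.72% of all genes tested were above every SCR library in this way. Without SCR replicate 1 the changes were 0.46 for AURKA (adjusted p = 0.326) and 0.27 for PLK1 (adjusted p = 0.411), with an exact permutation p of 0.0571 for each, the smallest that 3 against 4 libraries allow, and 4.3% of all genes were above every SCR library.

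For the other genes the silenced and SCR values overlapped in HT29. CCNB1 had 2421, 3493, 4449 and 2777 in SCR and 4475, 4088, 4496 and 4377 in silenced libraries, where only the 2 values of replicate 1 of each siRNA passed the highest SCR value. CDK1 had 761, 1367, 2241 and 1612 in SCR and 1734, 1681, 1902 and 1896 in silenced libraries. MKI67 had 12894, 25728, 41408 and 39828 in SCR and 40343, 41162, 40518 and 39608 in silenced libraries. For CDK1 and MKI67 the silenced values sat below the highest SCR library and well above SCR replicate 1. KIF20A, KIF14 and HMMR had the largest fold changes of the 42 in HT29 (0.61, 0.59 and 0.67), and 0.43, 0.34 and 0.36 without SCR replicate 1.

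The genes called in SW480 had other values in HT29. TPX2 had 2911, 5104, 7227 and 6016 in SCR, 5983 and 5375 with siPOLR1D-2 and 5061 and 4494 with siPOLR1D-3, for a log2 fold change of 0.045, or -0.22 without SCR replicate 1 (adjusted p = 0.955 and 0.605 from limma). NUF2 had 0.18 and -0.15, ECT2 0.14 and -0.11, KIF15 0.30 and -0.11, KIF2C 0.22 and 0.065, and PRC1 0.23 and -0.049, with and without that library. For 5 of these 6 genes the sign thus turned with SCR replicate 1. By role, without it, the median was highest for the Aurora and Polo-like kinases with their partners (0.24) and lowest for the centromere and kinetochore genes (-0.11).

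Each siRNA alone gave 0 calls in HT29 by limma, with 1 of the 42 genes at an unadjusted p under 0.05 with siPOLR1D-2 and 3 with siPOLR1D-3, all higher (1.66% and 3.74% of all genes). The medians were 0.35 and 0.39. AURKA was higher by 0.53 with siPOLR1D-2 and by 0.63 with siPOLR1D-3. The direct comparison of the siRNAs called 0 of the 42 (0% of all genes), and 0 were at an unadjusted p under 0.05 (1.56% of all genes).

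Between the lines, 32 of the 42 genes were higher on average after silencing in HT29 and lower in SW480, and 10 were higher in both. Without HT29 SCR replicate 1 these numbers were 24 and 7, with 8 lower in both lines and 3 lower in HT29 and higher in SW480. The difference itself, taken as the SW480 change less the HT29 change, passed limma's interaction test for 0 of the 42 genes, beside 0.0393% of all genes. At an unadjusted p under 0.05, 16 of the 42 had a lower change in SW480 (4.56% of all genes), led by AURKA (-0.70, SE 0.20, adjusted p = 0.273) and KIF2C (-0.60, SE 0.19, adjusted p = 0.328). Without HT29 SCR replicate 1, 0 were called (0.0311% of all genes), 6 genes had a lower change in SW480 at that level (4.52% of all genes) and 1, PRC1, a higher one (0.60, SE 0.24, adjusted p = 0.486, 3.78% of all genes), and the median difference went from -0.54 to -0.26.

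Other genes of the cell cycle were taken from lists of their roles. Of 60 other mitosis genes, 2 rose and 1 fell in SW480 by limma, beside 2.44% and 4.29% of all genes tested, with a median of -0.085. With siPOLR1D-2 against the 6 SCR libraries 4 of the 60 fell and 0 rose (5% and 3.16% of all genes). With siPOLR1D-3 1 fell and 0 rose (4.45% and 2.15% of all genes). For siPOLR1D-3 against SCR replicates 4 to 6, 7 rose and 2 fell (9.29% and 11.1% of all genes). For siPOLR1D-2 against SCR replicates 1 to 3 limma called 0 (0% of all genes). At an unadjusted p under 0.05, 10 were lower there (8.12% of all genes) and 1 was higher, for which the share of all genes is not at hand. In the pooled comparison, CENPM, a centromere protein, rose by 0.65 (adjusted p = 0.0446) and FAM83D, a spindle protein, by 0.51 (adjusted p = 0.0346), and CKAP2L, also of the spindle, fell by 0.87 (adjusted p = 0.00908). Between the siRNAs, PIMREG was higher with siPOLR1D-3 (0.95, adjusted p = 0.0295 from limma). Of 10 genes that control entry into mitosis, CDC25C, the phosphatase that activates CDK1, fell by 0.38 (adjusted p = 0.0486 from limma) and GADD45A, a stress-induced inhibitor, fell by 1.10 (adjusted p = 0.0386), and the median was -0.044. Of 12 genes of the MuvB, B-Myb and Rb-family complex, RBL1, which encodes p107, rose (0.42, adjusted p = 0.0281 from limma), with a median of 0.047. In HT29 limma called 0 genes of these 3 lists (0% of all genes), with 5, 2 and 1 of their genes at an unadjusted p under 0.05. The 5 were higher, the 2 were 1 higher and 1 lower, and the last was lower. Among all genes tested, 4.66% were higher and 6.05% lower at that level. The HT29 medians of the 3 lists were 0.34, 0.20 and 0.010 with all libraries and 0.057, -0.0076 and -0.015 without SCR replicate 1.

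The G1/S and replication genes, which are transcribed earlier in the cycle, had a median above 0 in SW480. Of 30, 23 were above 0 and 7 below, with a median of 0.25, and MCM5 (0.52, adjusted p = 0.0436 from limma), a subunit of the replicative helicase, and GINS2 (0.89, adjusted p = 0.0442) rose, beside 2.44% of all genes tested. This depended on the SCR libraries used. The mean of the list was 0.41 and 0.39 in SCR replicates 1 and 2, from -0.39 to 0.0036 in SCR replicates 3 to 6, and from 0.21 to 0.42 in the 6 silenced libraries. For siPOLR1D-3 against SCR replicates 4 to 6, 14 of the 30 rose by limma (9.29% of all genes) with a median of 0.44, and for siPOLR1D-2 against SCR replicates 1 to 3, 0 were called, also 0 at an unadjusted p under 0.05, with a median of 0.11. In HT29 SCR replicate 1 their mean was -1.49, further below the SCR mean than that of the 42 genes. With that library their median fold change in HT29 was 0.57 and without it 0.040, with 0 calls by limma in both cases and, at an unadjusted p under 0.05, 1 gene higher and 1 lower in each. Of all genes tested, 4.66% were higher and 6.05% lower at that level with the library, and 4.3% were higher without it.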

How the data were processed

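RNA of both lines was collected at 72 h of silencing. The authors captured coding RNA, sequenced it as paired-end reads and quantified it with kallisto 0.44.0 after FastQC 0.11.5, by the submitters' processing notes. The deposited signal values are read counts normalized by the authors with DESeq2 1.24.0 within each cell line, per the labels for hg38, and the annotation is not given in the sources used here. They are not whole numbers, and 22.0% to 49.3% of low values lay within 0.01 of a multiple of the value taken as 1 read, so reads per gene were not recovered and no counting interval was derived. The depth named in the text is the sum divided by that value.

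Rows sharing a name were summed. limma 3.58.1 (R 4.3.3) was run on log2(value + 1) with a mean-variance trend, for genes that reached 10 in no fewer libraries than the smaller arm has, and p values were adjusted by Benjamini-Hochberg over every gene tested (13274 in HT29, 15019 in SW480) and read at a threshold of 0.05. The fold changes are on that log2 scale. A test for counts was not used. Each line was fitted alone, each siRNA in a fit of its line, and the difference between lines as an interaction. Other scalings, pseudocounts, filters, library weights, a replicate block and fits without 1 library were tried. Exact permutation tests were 2-sided. The fit was tested on simulated data. Tables were made with Python 3.11.15. Loci come from GENCODE 29 and promoters from RefSeq.

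The 42 genes, the other gene lists and the tests were chosen with earlier results of these data known. Named genes were 12 taken by role, all members past the threshold in either line, between siRNAs or between lines, and the 3 with the largest rise and fall in each line. Other members were named, after their values were seen, to complete their role. Of the other lists, genes past the threshold between silenced and SCR libraries of a line, or between siRNAs, were named, and those of other comparisons were counted.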

Additional observations from a re-analysis of the deposited data

Results flagged for a closer look

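Each of the 21 named genes was looked at in 4 groups of 4 or 6 libraries, and in 5 of 84 groups 1 library lay far from the rest, where chance gives about 1 in 20. In SW480 SCR replicate 1, CCNB1 was at 5031 against 3120 to 3715 in the other SCR libraries, and AURKA at 7617 against 4697 to 5117. In SW480 siPOLR1D-2 replicate 2, PLK1 was at 1333 against 1689 to 1864 in the other silenced libraries, and AURKA at 3805 against 4976 to 5309. In SW480 siPOLR1D-2 replicate 3, KIF14 was at 1070.3 against 1509 to 1762. HT29 gave no such group for these genes, since the gap of SCR replicate 1 to the next library was below the limit in each.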

How the results depend on the processing

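For SW480 the number of genes called, 6 of 42, was 3 without a filter on low values, 2 without a trend, 3 with all 20 libraries in one fit, 0 for siPOLR1D-2 against SCR replicates 1 to 3 (median -0.35), 11 for siPOLR1D-3 against SCR replicates 4 to 6 (median 0.10), and 2 to 7 when 1 library was left out, being 2 or 3 unless that was SCR replicate 1 or siPOLR1D-2 replicate 2. For each siRNA alone the counts with 1 library left out were 1 to 10 (siPOLR1D-2) and 1 to 4 (siPOLR1D-3). The cause of these shifts was not tested, beyond the smaller number of libraries. Except for the comparisons with SCR replicates 1 to 3 and 4 to 6, the share of all genes called in these fits is not at hand. The shifts are therefore not read as particular to the 42 genes. In HT29 the count was 0 in every fit except that with the replicate block.

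Whether equal replicate numbers mark paired libraries is not given by the labels. Correlations of same-numbered libraries, on values less their group mean, ran from -0.174 to 0.038 over 6 pairs in HT29 and from -0.595 to 0.391 over 9 in SW480. Not every library correlated best with one of its own number. Each HT29 siRNA has 2 libraries, whose values less their mean mirror each other, so these correlations cannot decide on a pairing there. They do not settle it in SW480 either. With the replicate number as a block, 16 genes were called in HT29, 0 in SW480, 0 for siPOLR1D-2 and 1 for siPOLR1D-3 in SW480, and CDC20 (-0.074) and MKI67 (-0.23) turned below 0 in SW480. Replicates 3 and 4 of HT29 and 4 to 6 of SW480 exist for SCR only, so the block takes them out of the contrast. In HT29 it thus rests on SCR replicates 1 and 2 (mean log2 difference of the 42 genes -0.81 and 0.013). SCR replicates 3 and 4 (0.51 and 0.28) do not enter. The share of all genes called with the block is not at hand, so the 16 calls are not read as a response.

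None of the single genes whose value changed sign was past the threshold before or after. In HT29 they were, with library weights, CENPF (-0.046), TPX2 (-0.25), NUF2 (-0.051), ECT2 (-0.093), PRC1 (-0.070), KIF15 (-0.074) and NDC80 (-0.14). With 1 library left out, the lowest value being that without SCR replicate 1, they ran from -0.11 to 0.30 for CENPF, -0.22 to 0.22 for TPX2, -0.15 to 0.34 for NUF2, -0.11 to 0.28 for ECT2, -0.049 to 0.40 for PRC1, -0.11 to 0.50 for KIF15 and -0.15 to 0.31 for NDC80. In SW480 they were CCNB1 (0.097), HMMR (0.020) and KIF14 (0.092) with library weights, CDC20 (-0.10), KIF20A (-0.029) and MKI67 (-0.36) for siPOLR1D-2 against SCR replicates 1 to 3, and CCNB1 (0.18), CDK1 (0.058), AURKA (0.049), BUB1 (0.068), HMMR (0.14) and KIF14 (0.23) for siPOLR1D-3 against SCR replicates 4 to 6. With 1 library left out CCNB1 ran from -0.14 to 0.00047 and MKI67 from -0.045 to 0.095.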
